A study of Mus musculus with 22 samples.

Results

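The cytochrome oxidase subunits that come in tissue-specific versions were followed in mouse inguinal white fat: Cox4i1, Cox4i2, Cox6a1, Cox6a2, Cox7a1, Cox7a2, Cox7a2l, Cox8a and Cox8b. A gene was taken in where a probe set named it and no other gene, and all 9 of these genes had 1 such probe set, among 22180 genes in all. The mice were males on a C57BL/6 background, wild type or PPARα-null, the null line lacking the fatty acid receptor PPARα in all its cells. They were 3 to 4 months old when all of them went to 28 °C for 5 weeks, a temperature at which a mouse spends no extra energy on warmth. The groups at 28 °C then stayed there, and those at 5 °C spent 1 week at 21 °C and 10 days at 5 °C. From the 10 mice housed in each group, arrays were run for 6 wild types and 6 nulls kept at 28 °C and for 5 and 5 from the cold, 1 mouse per Affymetrix array. The series asked whether PPARα is needed for the cold to turn white fat into heat-producing fat.

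Cytochrome oxidase, complex IV of the respiratory chain, hands electrons from cytochrome c to oxygen and pumps protons as it does so. Its catalytic core is encoded in mitochondrial DNA, and a ring of small nuclear-encoded subunits surrounds it. Several of these small subunits exist as a pair of isoforms encoded by separate genes, a form found in most tissues and a form typical of heart, skeletal muscle and brown fat. Subunit 4 is different, as its second isoform, Cox4i2, is best known from lung and from the contractile cells of small vessels, where it takes part in oxygen sensing. Cox7a2l, also called SCAF1, resembles subunit 7a and is known as a factor that can link complex IV to complex III in supercomplexes. Its RNA does not show whether it did so in these mice. Brown fat and cold-exposed white fat hold many mitochondria, so the composition of complex IV there has long been of interest.

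The promoters of the ubiquitous and the heart-type isoforms of subunits 7a and 8 are shown because these 4 genes gave the contrast on which the results turn. Each sequence is the 250 bases before the annotated gene start, 5′ to 3′ in the direction of the gene, from RefSeq on assembly GRCm38.p6. Capitals mark CpG dinucleotides, the pairs at which vertebrate DNA is methylated and which cluster in the promoters of broadly used genes.
Cox7a1, heart type, chr7:30183921-30184170, plus strand: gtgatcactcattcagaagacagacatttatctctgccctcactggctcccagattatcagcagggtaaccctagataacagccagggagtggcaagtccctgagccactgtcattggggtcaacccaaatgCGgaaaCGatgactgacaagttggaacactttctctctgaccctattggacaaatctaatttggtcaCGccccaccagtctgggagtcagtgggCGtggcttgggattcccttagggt
Cox7a2, ubiquitous, chr9:79759854-79760103, minus strand: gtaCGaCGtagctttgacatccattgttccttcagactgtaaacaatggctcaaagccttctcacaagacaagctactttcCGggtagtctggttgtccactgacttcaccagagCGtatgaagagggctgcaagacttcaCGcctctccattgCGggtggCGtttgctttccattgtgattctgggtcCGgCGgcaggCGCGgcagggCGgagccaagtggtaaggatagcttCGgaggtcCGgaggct
Cox8b, heart type, chr7:140900447-140900696, minus strand: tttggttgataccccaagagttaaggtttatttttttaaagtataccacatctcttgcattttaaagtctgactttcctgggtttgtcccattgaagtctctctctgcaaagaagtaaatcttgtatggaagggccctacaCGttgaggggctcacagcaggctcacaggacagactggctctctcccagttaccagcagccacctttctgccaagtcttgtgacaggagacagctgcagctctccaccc
Cox8a, ubiquitous, chr19:7217617-7217866, minus strand: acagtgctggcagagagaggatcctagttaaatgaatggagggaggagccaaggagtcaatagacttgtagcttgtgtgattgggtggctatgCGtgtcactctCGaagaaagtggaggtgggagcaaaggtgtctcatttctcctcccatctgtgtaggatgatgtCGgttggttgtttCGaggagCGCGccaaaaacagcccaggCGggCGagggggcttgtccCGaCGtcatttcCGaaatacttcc

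The heart-type windows held 4 CpG in Cox7a1 and 1 in Cox8b, and the ubiquitous windows 14 in Cox7a2 and 11 in Cox8a. Among the 32851 windows of this length in the promoter table, the median was 6 CpG, 44.4% held 4 or fewer and 18.8% held 1 or none. The table held 6 of the 9 genes, and the others among them were Cox6a1 with 26 CpG and Cox7a2l with 13. GC content was 51.2% in Cox7a1, 47.2% in Cox8b, 54.8% in Cox7a2 and 52.8% in Cox8a, against a median of 52.4%. Both strands of these windows were searched for 8 motifs. They were the cAMP response element TGACGTCA, the ERR element TCAAGGTCA, the nuclear receptor hexamer AGGTCA contained in it, a pair of such hexamers 1 base apart (the element type that PPARα binds with its partner RXR), the ETS site CCGGAAG, the NRF1 core GCATGCGC, the YY1 site AAGATGGC and the TATA box TATAAA. Of all windows 1.55%, 0.387%, 14.0%, 0.0335%, 6.91%, 2.26%, 1.56% and 12.4% held them, in that order. The Cox6a1 window held an ETS site and, on both strands at overlapping positions, an NRF1 core, and the other 5 windows held none of the 8.

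The arrays were alike: correlations between arrays ran from 0.958 to 0.981 and array medians from 4.16 to 4.25 log2 units. Values throughout are log2, so that 1 unit is a doubling of signal. In bulk tissue, fewer cells of a type and less RNA per cell cannot be told apart. The pads carried adipocyte RNA, with Fabp4, a fatty acid carrier of fat cells, the brightest marker of its list at a mean of 12.6. Ucp1, the uncoupling protein that makes heat, stood between 4.50 and 6.47 at 28 °C and between 12.3 and 12.6 at 5 °C over both genotypes. The Ppara signal did not tell the genotypes apart, at 4.42 to 5.00 in wild-type and 4.14 to 5.45 in null mice at 28 °C, and 6.13 to 6.98 and 5.77 to 7.10 at 5 °C. No source used here says whether its probe set covers the disrupted stretch, so it checks no label, and groups are named as labelled. A gene was called when limma's Benjamini-Hochberg adjusted p over all genes was under 0.05. In wild-type mice 8.35% of genes were called higher and 8.3% lower in the cold, and in null mice 6.88% and 6.33%.

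Within subunits 7a and 8 the cold raised the heart-type isoform by 7.76- to 14.7-fold and the ubiquitous isoform by well under a doubling, in both genotypes. Of the 9 isoform genes, 6 rose in each genotype, Cox7a1, Cox8b, Cox4i1, Cox7a2, Cox8a and Cox6a1, and 0 fell. Cox4i2, Cox6a2 and Cox7a2l did not pass the test in either genotype. The median change over the 9 genes was 0.39 for wild types and 0.36 for nulls, against 0.01 and −0.00 over all genes.

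Cox7a1 encodes the heart and muscle form of subunit 7a, which sits at the edge of the complex where copies can pair. In wild-type mice at 28 °C its value ran from 5.87 to 7.30 with a median of 6.65, and at 5 °C the mice gave 10.52, 10.25, 10.13, 10.17 and 10.53. Null mice ran from 5.57 to 7.00 (median 6.24) at 28 °C, and gave 10.62, 10.25, 9.83, 10.00 and 10.24 at 5 °C. Every cold mouse lay above every warm mouse, by a wide gap, and the genotypes overlapped at each temperature. The change was 3.68 (SE 0.22, 12.8-fold, adjusted p = 2.27e-10 by limma) in wild-type and 3.88 (SE 0.22, 14.7-fold, adjusted p = 1.13e-10) in null mice, the third highest change of all genes in each. Its group SD was 0.46 and 0.47 at 28 °C and 0.19 and 0.30 at 5 °C for wild-type and null mice.

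Cox8b encodes the heart-type form of the small membrane-spanning subunit 8. Wild-type values ran from 7.27 to 8.09 (median 7.57) at 28 °C and were 11.04, 10.68, 10.68, 10.56 and 10.98 at 5 °C. Null values ran from 7.30 to 8.24 (median 7.56) at 28 °C and were 10.93, 10.64, 10.31, 10.69 and 10.76 at 5 °C. Again no cold mouse came near a warm mouse, and the genotypes overlapped. The rise was 3.17 (SE 0.18, 9.01-fold, adjusted p = 1.31e-10 by limma) in wild-type and 2.96 (SE 0.18, 7.76-fold, adjusted p = 3.79e-10) in null mice, which ranked 6 among all genes in each genotype.

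**Figure D1:**
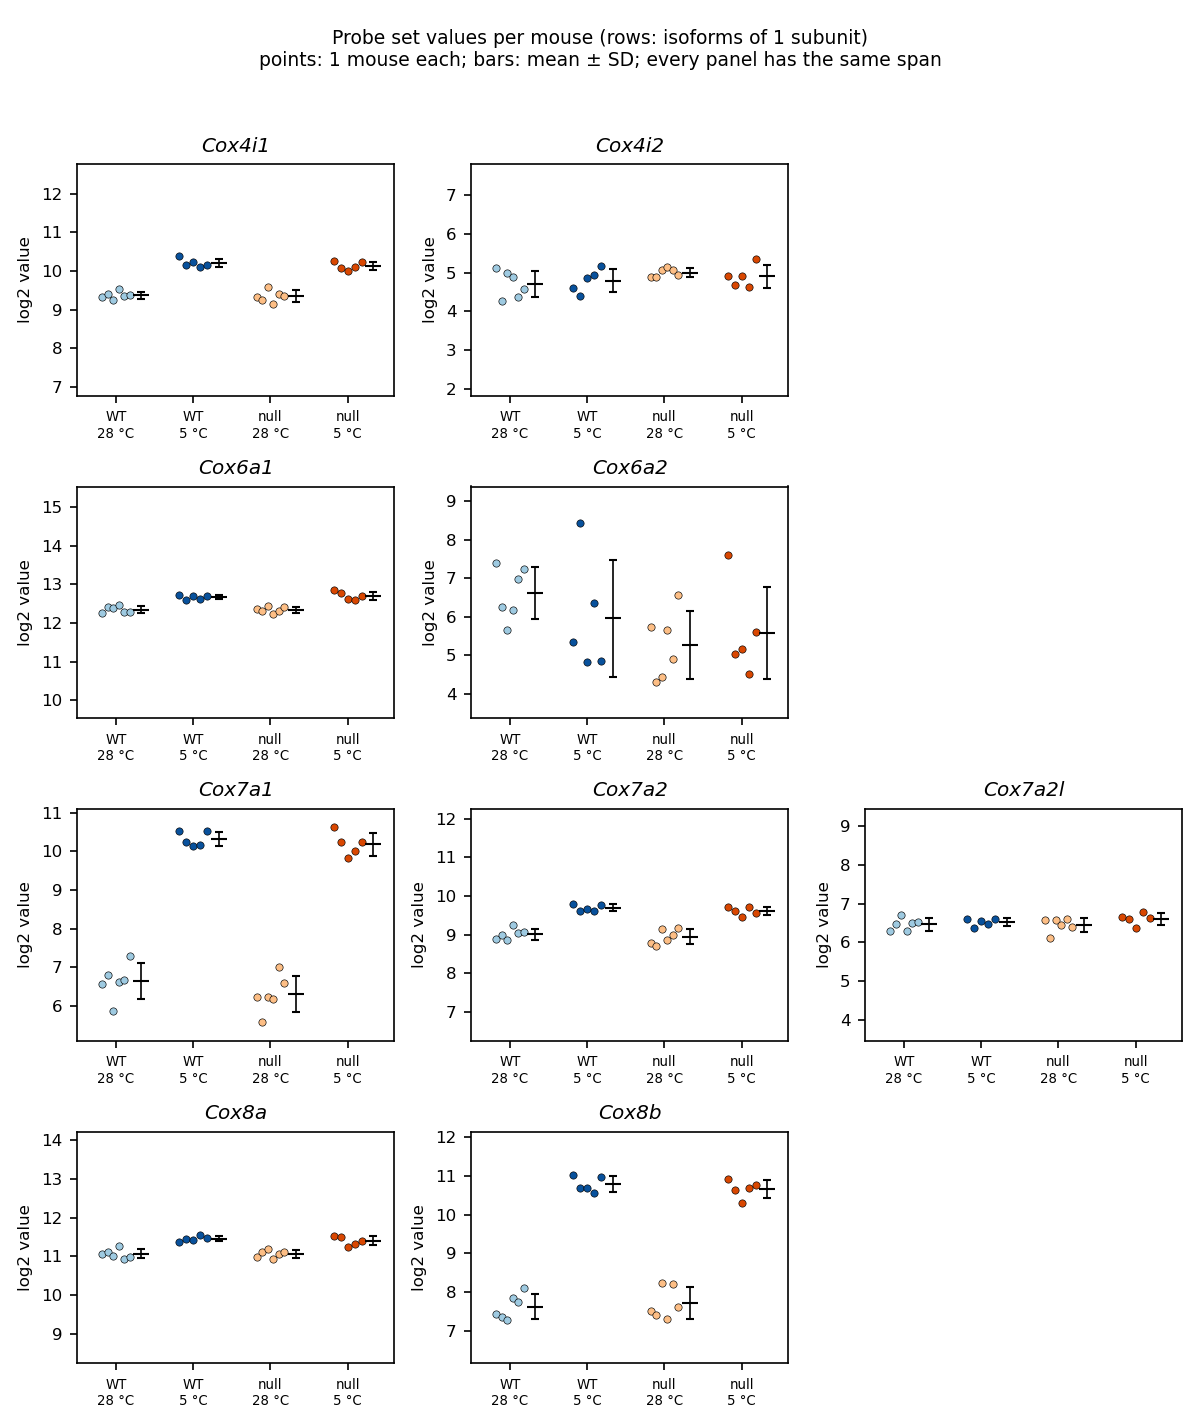
Log2 value of each isoform gene per mouse in the 4 groups (WT, wild type), with the group mean and SD beside the points. All panels have the same span, so the steps of Cox7a1 and Cox8b between 28 and 5 °C can be set against the smaller steps of Cox4i1, Cox6a1, Cox7a2 and Cox8a, and against the wide scatter of Cox6a2.

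The ubiquitous partners rose too, by less. Cox7a2, the form of subunit 7a in most tissues, ran from 8.85 to 9.24 (median 9.01) in warm wild-type mice and was 9.80, 9.62, 9.67, 9.62 and 9.77 in the cold. It rose by 0.69 (SE 0.09, 1.61-fold, adjusted p = 9.54e-06 by limma). In null mice it went from 8.70 to 9.18 (median 8.92) at 28 °C to 9.73, 9.62, 9.46, 9.71 and 9.56 at 5 °C, a rise of 0.67 (SE 0.09, adjusted p = 1.53e-05). Warm and cold mice did not overlap in either genotype.

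Cox8a, the ubiquitous subunit 8, ran from 10.94 to 11.28 (median 11.05) in warm wild-type mice and was 11.37, 11.46, 11.42, 11.54 and 11.48 in the cold. Its rise was 0.39 (SE 0.07, 1.31-fold, adjusted p = 0.000516 by limma) there and 0.34 (SE 0.07, 1.26-fold, adjusted p = 0.00241) in null mice. Null mice ran from 10.92 to 11.18 (median 11.08) when warm and gave 11.53, 11.50, 11.25, 11.31 and 11.40 when cold. These steps were small, yet in each genotype the lowest cold mouse stood above the highest warm mouse.

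Cox6a1, the ubiquitous form of the regulatory subunit 6a, rose by 0.32 (SE 0.06, adjusted p = 0.000832 by limma) in wild-type and 0.36 (SE 0.06, adjusted p = 0.000283) in null mice. Its values ran from 12.27 to 12.47 (median 12.33) in warm and 12.60 to 12.72 (median 12.70) in cold wild-type mice, and from 12.23 to 12.43 (median 12.34) and 12.60 to 12.84 (median 12.69) in null mice. Warm and cold mice were again apart. Its signal was near the top of the arrays, whose highest values lay between 13.2 and 13.4, and whether this narrowed its change was not tested.

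Cox4i1, the common form of subunit 4, which binds nucleotides and adjusts the activity of the complex, had the third highest rise of the 9 genes. In warm wild-type mice it ran from 9.24 to 9.53 (median 9.36), and in the cold it was 10.40, 10.17, 10.22, 10.11 and 10.15. The rise was 0.84 (SE 0.08, 1.79-fold, adjusted p = 1.48e-07 by limma). Null mice ran from 9.14 to 9.60 (median 9.34) at 28 °C, gave 10.25, 10.08, 9.99, 10.10 and 10.23 at 5 °C, and rose by 0.78 (SE 0.08, 1.72-fold, adjusted p = 4.93e-07). The temperatures were separate and the genotypes overlapped.

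Cox4i2 showed no such step. Its values ran from 4.27 to 5.13 (median 4.73) in warm and were 4.60, 4.40, 4.87, 4.94 and 5.16 in cold wild-type mice, and ran from 4.89 to 5.15 (median 5.00) and were 4.93, 4.68, 4.92, 4.63 and 5.36 in null mice. Warm and cold mice overlapped in both genotypes. The change was 0.09 (95% interval −0.24 to 0.42, adjusted p = 0.781 by limma) and −0.10 (−0.43 to 0.23, adjusted p = 0.777). Its signal was low, not far above the array medians, which limits what a change in it could show. The wild-type change lay between −0.00 and 0.19 when each mouse was left out in turn.

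Cox7a2l was as flat. It stood at 6.29 to 6.71 (median 6.48) in warm and 6.37 to 6.61 (median 6.54) in cold wild-type mice. In null mice it stood at 6.11 to 6.59 (median 6.50) and 6.37 to 6.78 (median 6.63). The groups overlapped throughout. The change was 0.06 (95% interval −0.14 to 0.26, adjusted p = 0.770 by limma) and 0.16 (−0.04 to 0.36, adjusted p = 0.352), so a rise the size of that of Cox7a2 lay outside both intervals.

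Cox6a2, the heart and muscle form of subunit 6a, did not follow Cox7a1 and Cox8b. Wild-type values ran from 5.67 to 7.38 (median 6.62) at 28 °C and were 5.35, 8.43, 4.83, 6.35 and 4.85 at 5 °C. Null values ran from 4.32 to 6.56 (median 5.29) and were 7.59, 5.04, 5.17, 4.52 and 5.61. Single mice in each cold group stood far above their group, replicate 2 of the wild-type mice and replicate 1 of the null mice, and warm and cold mice overlapped. The change was −0.66 (SE 0.60, 95% interval −1.90 to 0.59, adjusted p = 0.529 by limma) in wild-type and 0.31 (SE 0.60, −0.93 to 1.56, adjusted p = 0.819) in null mice.

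These scattered values moved with RNA of skeletal muscle, which lies next to the inguinal pad. The mean log2 value of 18 skeletal muscle genes, the brightest of them the myosin Myh4 and the dimmest Myh2, ran from 6.83 to 9.08 in warm and 5.87 to 9.96 in cold wild-type mice. In null mice it ran from 5.47 to 8.13 and 6.03 to 9.21. The same cold mice, wild-type replicate 2 at 9.96 and null replicate 1 at 9.21, held the top of their groups in this muscle score and in Cox6a2. Over the 22 arrays the deviations of Cox6a2 from its group means correlated with those of the muscle score at r = 0.984 (Spearman's rho 0.962, r = 0.972 without the arrays farthest from the median), a description over arrays that share their RNA between both measures. Of the 18 muscle genes limma called 0 in any comparison, and 0 had an unadjusted p under 0.05 for the cold effect in either genotype. Their median change was −0.58 for wild types and 0.51 for nulls, on the same sides of 0 as Cox6a2.

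With the muscle score as a covariate the Cox6a2 change was −0.14 (adjusted p = 0.484 by limma) for wild types and −0.10 (adjusted p = 0.703) for nulls. Without those cold arrays, an alternative chosen after seeing the data, it was −1.27 (adjusted p = 0.0490), a call, and −0.19 (adjusted p = 0.861). All warm arrays were kept, among them wild types with muscle scores up to 9.08. Leaving arrays out on the cold side alone lowered the muscle score there, so this call cannot be read as an effect of the cold. Over the alternatives run, limma's adjusted p of the wild-type change ranged from 0.0490 to 0.765. Whether muscle in the samples accounts for the Cox6a2 values was not tested.

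Cox7a1 and Cox8b are muscle isoforms too, so the same values are given for them. With the muscle score as a covariate Cox7a1 changed by 3.76 and 3.82 and Cox8b by 3.18 and 2.95 in wild-type and null mice. Without the cold arrays of highest muscle score, Cox7a1 changed by 3.70 and 3.77 and Cox8b by 3.20 and 2.89. Their deviations correlated with those of the muscle score at r = 0.42 for Cox7a1 and 0.06 for Cox8b.

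**Figure D2:**
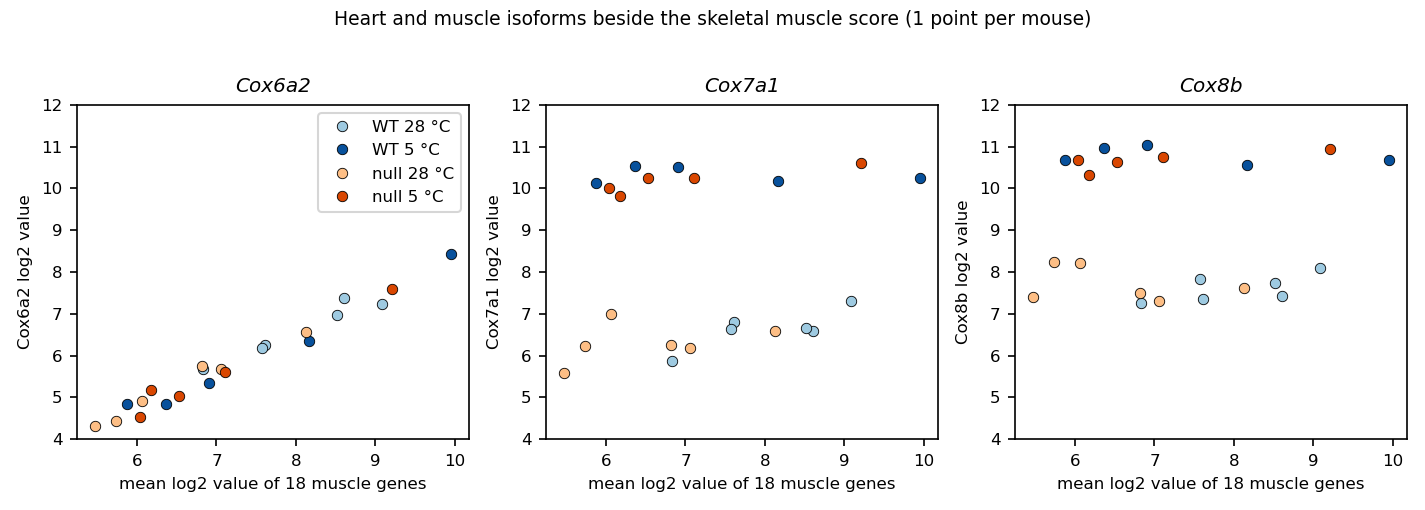
Log2 value of Cox6a2, Cox7a1 and Cox8b in each mouse (vertical axes) against the mean log2 value of 18 skeletal muscle genes in the same mouse (horizontal axes), coloured by group. Cox6a2 lies along 1 line through all 4 groups, while Cox7a1 and Cox8b lie in a warm and a cold band at any muscle score.

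The isoforms of a subunit were then compared within each mouse, as the log2 value of one minus that of its partner. Probe sets differ in brightness, so the level of this difference means nothing by itself, and only its change between groups was read. It is a change of the ratio of the signals, and no scaling of a whole array moves it. Each of 5 pairs was tested in 5 comparisons, 25 in all, with two-sided exact permutation tests over mice and Benjamini-Hochberg adjustment over the 25. The smallest exact p that 6 warm against 5 cold mice allow is 0.00216.

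Relative to Cox7a2, Cox7a1 rose by 2.99 log2 units (SE 0.18, a 7.94-fold shift of the ratio, exact permutation p = 0.00216, adjusted 0.0108) in wild-type mice. In null mice it rose by 3.21 (SE 0.19, 9.24-fold), with the same exact permutation p. The difference ran from −2.98 to −1.76 in warm and 0.46 to 0.76 in cold wild-type mice, and from −3.12 to −1.99 and 0.29 to 0.89 in null mice. All cold mice thus stood above all warm mice.

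Relative to Cox8a, Cox8b rose by 2.78 (SE 0.18, 6.89-fold, exact permutation p = 0.00216, adjusted 0.0108) in wild-type and by 2.62 (SE 0.17, 6.14-fold, the same p) in null mice. The difference ran from −3.75 to −2.89 in warm and −0.98 to −0.34 in cold wild-type mice, and from −3.73 to −2.84 and −0.94 to −0.59 in null mice. The warm and cold ranges were apart in both genotypes.

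For subunit 4 the ratio of the signals moved the other way, toward the common form. Relative to Cox4i1, Cox4i2 fell by 0.75 (SE 0.22, exact permutation p = 0.00866, adjusted 0.0241) in wild-type and by 0.88 (SE 0.13, exact permutation p = 0.00216, adjusted 0.0108) in null mice. The difference ran from −5.14 to −4.21 in warm and −5.80 to −4.98 in cold wild-type mice, which overlap, and from −4.53 to −3.99 and −5.47 to −4.88 in null mice, which do not. The values above show Cox4i1 rising and no called change in Cox4i2, whose low signal limits what its change could show. In bulk tissue this ratio does not tell which isoform a given cell uses.

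Cox7a2l fell relative to Cox7a2 by 0.63 (SE 0.11, exact permutation p = 0.00433, adjusted 0.0155) in wild-type mice. In null mice it fell by 0.52 (SE 0.09, with the same exact permutation p). Here too the change in the ratio came with a called rise of Cox7a2 and no called change of Cox7a2l.

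For subunit 6a no change of the ratio passed the test. Cox6a2 relative to Cox6a1 changed by −0.98 (SE 0.76, 95% interval −2.36 to 0.40, exact permutation p = 0.193) in wild-type and by −0.05 (SE 0.61, −1.43 to 1.33, exact permutation p = 0.944) in null mice. Without replicate 2 of the cold wild-type mice, which had the highest muscle score, the wild-type change was −1.61 (exact permutation p = 0.0286). This left-out value is without adjustment over the pairs, and no warm mouse of high muscle score was left out with it. Both intervals are wide and include no change.

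**Figure D3:**
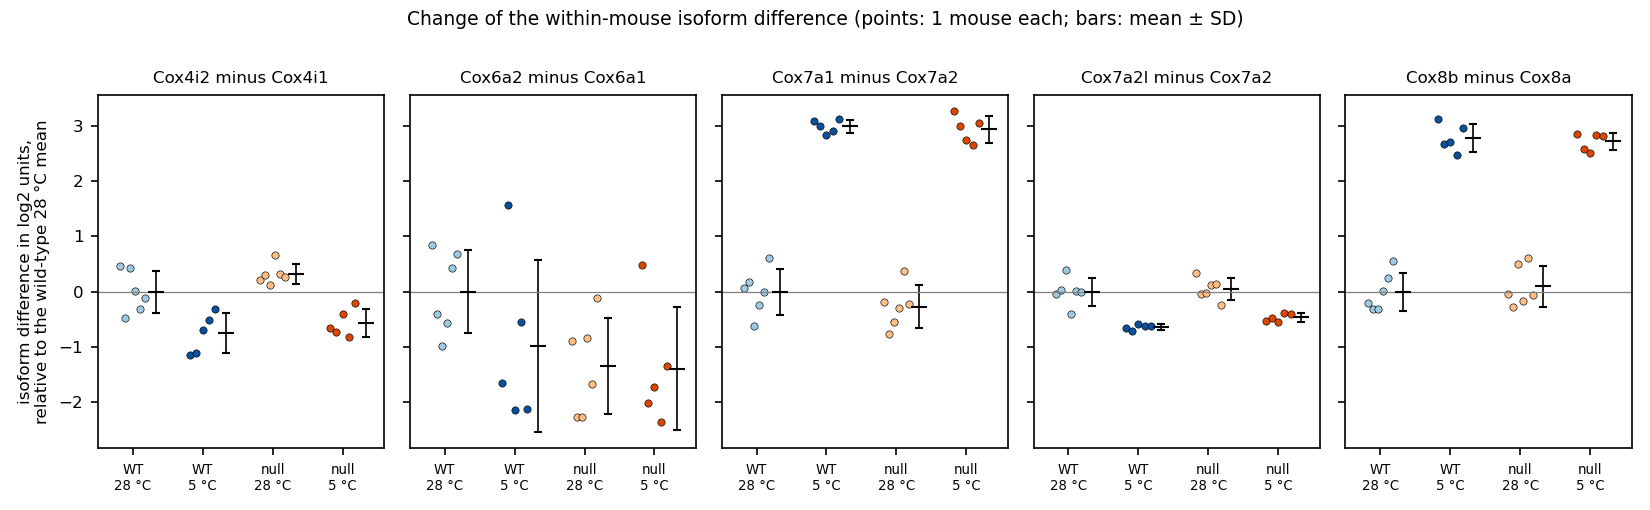
Within-mouse difference of each isoform pair in log2 units, relative to the mean of the wild-type mice at 28 °C, with 1 point per mouse and the group mean and SD. Cox7a1 and Cox8b rise by about 3 units against their partners in the cold, Cox4i2 and Cox7a2l fall by less than 1, and Cox6a2 scatters over about 4.

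Whether PPARα made a difference was asked of the same genes. For the difference of the cold effects, null minus wild type, limma called 0 of the 9 isoform genes, beside 0% of all genes. None of the 9 had an unadjusted p under 0.05, which 1137 genes, 5.13% of all, had. The difference was 0.20 (95% interval −0.44 to 0.85) for Cox7a1 and −0.21 (−0.74 to 0.31) for Cox8b. It was −0.05 (−0.29 to 0.18) for Cox4i1, −0.02 (−0.28 to 0.25) for Cox7a2, −0.05 (−0.26 to 0.16) for Cox8a and 0.04 (−0.14 to 0.23) for Cox6a1. The intervals of these 4 ubiquitous forms leave out a change of more than 0.3 units either way, while that of Cox6a2, 0.97 (−0.79 to 2.73), spans a wide range. In the pairs, the permutation p of the difference of the cold effects lay between 0.378 and 0.635 over all arrangements of genotype within temperature. Exchanging genotype this way assumes no genotype effect at either temperature. The p is thus not exact for the difference of the cold effects alone. For Cox7a1 relative to Cox7a2 this difference was 0.22 (95% interval −0.36 to 0.80) and for Cox8b relative to Cox8a −0.17 (−0.71 to 0.38).

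Between genotypes at 1 temperature, limma called 0 of the 9 at 28 °C, where 0.194% of all genes were called in either direction, and 0 of the 9 at 5 °C, where 0.149% were. At 5 °C none of the 9 had an unadjusted p under 0.05. At 28 °C the interval of 1 of the 9 left out 0: Cox6a2 was lower in null mice, at −1.35 (95% interval −2.53 to −0.16), with an adjusted p = 0.649 by limma. Its ratio to Cox6a1 differed by −1.34 (exact permutation p = 0.0260, adjusted 0.0649), which missed the threshold after adjustment. The 18 muscle genes had a median difference of −1.63 there, 14 of them with an unadjusted p under 0.05 and 0 called. The share of all genes under that unadjusted threshold was not counted for the genotype comparison at either temperature. Markers of the same tissue are not separate results. With the muscle score as a covariate the Cox6a2 difference was −0.03 (adjusted p = 0.994 by limma). What the Cox6a2 difference rests on was not tested.

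Among the 10 genotype comparisons of pairs, Cox7a2l relative to Cox7a2 was higher in null mice at 5 °C by 0.17 (SE 0.04, exact permutation p = 0.00794, the smallest that 5 against 5 mice allow, adjusted 0.0241). The cold wild-type mice ran from −3.25 to −3.13 and the cold null mice from −3.09 to −2.92, and so did not overlap. With the spread pooled over all 4 groups, which was larger in warm mice, the 95% interval of this difference was −0.06 to 0.40. Neither gene alone was called between genotypes at 5 °C: Cox7a2l was at 0.09 (adjusted p = 0.924 by limma) and Cox7a2 at −0.08 (adjusted p = 0.924), null minus wild type.

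In the order of group means, Cox4i1, Cox7a1, Cox7a2 and Cox8a ran from null at 28 °C over wild type at 28 °C and null at 5 °C to wild type at 5 °C. Cox6a1 differed from this only in its cold groups and Cox8b only in its warm groups, which had changed places. For these 6 genes the genotypes at 1 temperature, next to each other in the order, were not called apart by limma, and each cold group was called above the warm group of its genotype. For Cox4i2, Cox6a2 and Cox7a2l no neighbours in the order were called apart.

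The rest of the complex gives the setting for these isoforms. Of 9 other nuclear-encoded subunits, the wild types had 6 higher in the cold and the nulls 5, with 0 lower in either and median changes of 0.62 and 0.66. Of all genes, 8.35% and 6.88% were called higher. Cox5a and Cox5b, which lie on the matrix side of the complex, rose by 1.25 (SE 0.13) and 1.05 (SE 0.12) in wild-type and by 1.17 (SE 0.13) and 0.88 (SE 0.12) in null mice. Cox7b rose by 0.92 (SE 0.11) and 1.09 (SE 0.11), and Ndufa4, a late-assigned subunit first counted with complex I, by 0.62 (SE 0.07) and 0.66 (SE 0.07). Cox4i1 and Cox7a2 fell within the range of these subunits, Cox8a and Cox6a1 below the median of the list, and Cox7a1 and Cox8b above all of it.

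The other 5 subunits of this list are named because so few remained, after their values were seen. Cox6b1 rose by 0.74 and 0.98. Cox7b2 rose by 0.39 (adjusted p = 0.0115 by limma) in wild-type mice and was at −0.04 in null mice, a difference of the cold effects that was not called. Its group means lay between 2.20 and 2.59, below the lower quartile of every array (2.83 to 2.91), and without it 5 of the list rose in wild-type mice. Cox6b2 and Cox8c, known as testis isoforms, did not pass in either genotype. Cox7c was not called in the cold (0.13 and 0.37) and was the only 1 of the 9 called between genotypes, by −1.13 (SE 0.12, adjusted p = 1.22e-05 by limma) in warm mice and −0.89 (SE 0.13, adjusted p = 0.00137) in cold mice, null minus wild type. Its values ran from 5.11 to 5.51 in wild-type and from 4.00 to 4.38 in null mice at 28 °C, and from 4.84 to 5.89 and 4.40 to 4.63 at 5 °C, with no overlap. What this difference rests on was not tested, and a mismatch in the probe set, a linked locus or a pseudogene was not examined.

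The probe sets of mt-Co1 and mt-Co3, listed as COX1 and COX3 and encoding catalytic-core subunits in mitochondrial DNA, were not called in either genotype alone. For the average of the cold effects over both genotypes, COX3 was called, at 0.12 (SE 0.04, adjusted p = 0.0380 by limma), and COX1 was not. In that average, 2586 of all 22180 genes were called higher and 2913 lower. COX1 changed by 0.00 (SE 0.05) and 0.03 (SE 0.05), and COX3 by 0.12 (SE 0.06) and 0.11 (SE 0.06). COX1 stood at 12.8 to 13.0 and COX3 at 12.2 to 12.6 over all mice, close to the top of the arrays. Whether this narrowed their changes was not tested.

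Complex IV also needs assembly factors, which insert copper and heme and fold the core. Of 25 of them, 18 rose in the wild types and 16 in the nulls and 0 fell, with median changes of 0.48 and 0.47. The shares of all genes called higher were 8.35% and 6.88%. Those with the smallest p were Lrpprc, which steadies mitochondrial mRNA (0.95 and 0.83), Taco1, which aids translation of the core subunit COX1 (1.04 and 0.87), the heme-modifying enzyme Cox10 (0.91 and 0.80) and Cmc2 (0.79 and 0.79). All 4 passed in both genotypes and moved by about as much as Cox4i1.

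Cox4i2 is known to be induced by low oxygen in some cells, so genes of the hypoxia response were set beside it. Of 8 such genes, the wild types had 2 higher and 2 lower in the cold, and the nulls 3 higher and 1 lower. Among all genes, 8.35% were higher and 8.3% lower in wild types, and 6.88% and 6.33% in nulls. The prolyl hydroxylase Egln3 rose by 1.08 (SE 0.18) and 1.24 (SE 0.18) and the kinase Pdk1 by 0.58 (SE 0.13) and 0.69 (SE 0.13). Ndrg1 fell by 0.78 (SE 0.10) and 0.69 (SE 0.10), and Bnip3, a mitophagy receptor, fell by 0.44 (SE 0.12) in wild-type mice and was at −0.30 (adjusted p = 0.123 by limma) in null mice. Vegfa, the vessel growth factor, was at 0.20 (adjusted p = 0.107) in wild-type mice and rose by 0.28 (adjusted p = 0.0251) in null mice. Cox4i2 did not pass beside these mixed movements.

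**Figure D4:**
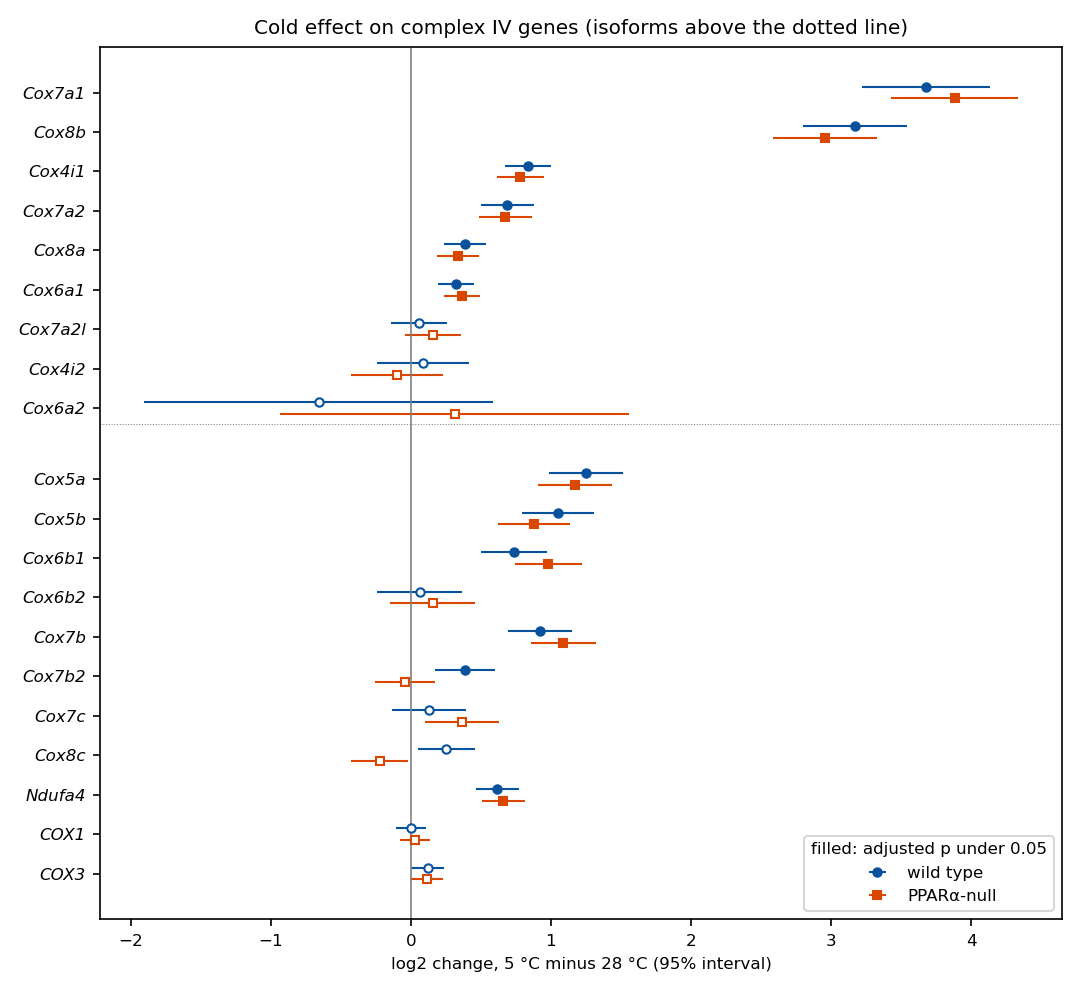
Cold effect (5 °C minus 28 °C, log2 units) with its 95% interval for the 9 isoform genes, above the dotted line, and 11 other genes of complex IV, in wild-type (circles) and PPARα-null mice (squares). Filled symbols passed the adjusted threshold. Cox7a1 and Cox8b lie near 3 to 4, all other symbols lie below 1.3, and the intervals of Cox6a2 are the widest.

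Mural cells of small vessels, in which Cox4i2 is known to be made, were followed with 10 marker genes, the brightest of them Rgs5 and the dimmest Higd1b. Their mean log2 value ran from 7.82 to 8.02 in warm and 7.86 to 7.93 in cold wild-type mice, and from 7.78 to 8.11 and 7.75 to 7.91 in null mice. Of the 10, the wild types had 2 higher and 2 lower in the cold, and the nulls 0 higher and 2 lower. Among all genes, 8.35% were higher and 8.3% lower in wild types, and 6.88% and 6.33% in nulls. The deviations of Cox4i2 from its group means correlated with those of this score at r = 0.07.

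Markers of other cells of the pad were followed too. The shares of all genes to set beside them were 8.35% higher and 8.3% lower in wild types, and 6.88% and 6.33% in nulls. All 5 macrophage markers, from C1qb, the brightest, to Adgre1, the dimmest, fell in both genotypes, with median changes of −0.70 and −0.61. The macrophage score ran from 8.76 to 9.02 in warm and 8.09 to 8.40 in cold wild-type mice, and from 8.68 to 9.05 and 8.11 to 8.35 in null mice. Of 6 endothelial markers, from Cdh5 to Tie1, the wild types had 1 higher and 1 lower, and the nulls 0 higher and 1 lower. Of 6 adipocyte markers, from Fabp4 to Lipe, 0 rose, and 1 and 2 fell. Of 5 lymphocyte markers, from Cd79a to Cd2, 0 were called by limma and 0 had an unadjusted p under 0.05 in either genotype, and the epithelial markers, from Krt8 to Krt14, were dim, with a score of at most 3.93. The part of these cell types in the changes of the isoform genes was not tested.

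Deviations within groups show which isoforms varied together from mouse to mouse, apart from genotype and temperature. They are a description over 22 arrays in which all genes share the same RNA, with no test. Cox7a1 and Cox8b varied together (r = 0.70, and 0.61 without the arrays farthest from the median). Cox7a1 followed the mean of 6 thermogenic markers, of which Cidea was the brightest and Dio2 the dimmest, at r = 0.78 (0.68 without the farthest arrays), and Cox8b at r = 0.59 (0.46).

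Cox8b also varied with the ubiquitous forms Cox4i1 (r = 0.76) and Cox7a2 (r = 0.71), and Cox6a1 with Cox8a (r = 0.72). Cox6a1 and Cox8a were nearly unrelated to the thermogenic markers by the same measure (r = 0.06 and −0.12). Between these and Cox8b lay Cox7a2l (r = 0.48), Cox7a2 (0.45), Cox4i1 (0.37) and Cox6a2 (0.28), and Cox4i2 went the other way (−0.37). Following the thermogenic markers was thus not particular to the heart-type forms. Cox4i2 followed no other isoform gene beyond r = 0.18 in size.

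The genes with the most similar pattern were sought among 17290 genes, since symbols of predicted genes, RIKEN clones, microRNAs, small nucleolar RNAs, olfactory and vomeronasal receptors and bare accessions were passed over. They were those with the smallest root mean square distance over the 22 arrays, after each gene's mean was removed. For Cox7a1 they were Acot11, a thioesterase of brown fat (0.45 log2 units), Cox8b (0.46) and Kng2 (0.52), where Cox7a1 itself varied by 1.92 about its mean. For Cox8b they were Acot11, the lipid droplet protein Cidea and Pank1, a kinase of coenzyme A synthesis. The nearest genes to Cox4i1 were Bckdha, Idh3b and Fh1, enzymes of branched-chain amino acid breakdown and of the citric acid cycle (0.09 each, against 0.42 about its mean). Cox7a2 lay nearest to Ifi27, Ndufc1, a subunit of complex I, and Atp5md, a subunit of ATP synthase.

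Cox6a1 and Cox8a were each other's nearest of these genes (0.07 log2 units), followed by Ppme1 and Aph1a for Cox6a1 and by Psmd3 and Grhpr for Cox8a. Cox6a2 had the muscle genes Eno3, Tpm2 and Nrap beside it (0.24 to 0.29, against 1.10 about its mean). For Cox4i2 (Tha1, Cbfa2t3 and Pramel15) and Cox7a2l (Ssu72, Washc3 and Fbxo42) the distances were not far below the spread of the gene itself, at 0.20 against 0.27 for Cox4i2 and 0.10 against 0.15 for Cox7a2l.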

How the data were processed

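RNA of 22 inguinal fat pads, 1 mouse each (100 ng, integrity above 8), was hybridised to Affymetrix whole-transcript arrays. The deposited file holds 1 log2 value per probe set and array, which the authors computed with RMA, per the submitters' processing notes. No source used here names the RMA version or the annotation build. Of 41345 probe sets, 23521 named 1 gene, 1814 several and 16010 none, and the brightest stood for each of 22180 genes. No further normalization or filter was applied. Arrays have no read depth, so their number limits the precision. Arrays were grouped by the labels, which give each as a separate mouse.

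Genes were fitted with limma 3.58.1 in R 4.3.3, all 4 groups together (18 residual and 3.35 prior degrees of freedom), and called at an adjusted p under 0.05 over all genes. SE and 95% intervals come from the fit. Within-mouse isoform differences were compared by exact permutation (Python 3.11.15, SciPy 1.17.1), with SE from the groups' own spread and 95% intervals from the spread pooled over the 4 groups. Both scripts were tested on simulated data. The isoform genes and gene lists were chosen with earlier results of these data known. Besides the isoform genes, Ppara and Ucp1, the text names up to 4 genes per complex IV or hypoxia list by smallest p of the average cold effect, those against the list's direction, those called between genotypes, the brightest and dimmest marker per cell type, and the 3 nearest genes per isoform. Cox6c, mt-Co2, Cox11, Sco2, Pet117, Ankrd37, Cpt1b, Cfd and Krt5 were not analysed here. Alternatives were scaling by array medians, quantile normalization, the mean of probe sets, leaving out the dimmest 25% of genes, trend and robust eBayes, only the groups compared, a replicate block, the muscle score as covariate and leaving out each array. The cold arrays of highest muscle score were left out after seeing the data, with all warm arrays kept.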

Additional observations from a re-analysis of the deposited data

Results flagged for a closer look

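In the within-mouse difference of Cox4i2 minus Cox4i1, replicate 4 of the null mice at 28 °C stood at −3.99 log2 units, apart from the other 5 mice of its group by more of the group's range than Dixon's 95% criterion allows. The group ran from −4.53 to −3.99 with a median of −4.38. This mouse had the lowest Cox4i1 (9.14) and the highest Cox4i2 (5.15) of its group, neither of which stood apart alone. Of 56 groups examined, 36 of single genes and 20 of isoform differences, this was the 1 that stood out, and chance does so in about 1 in 20.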

How the results depend on the processing

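The counts of called isoform genes kept their values under all alternatives run but 1. Without the cold arrays of highest muscle score, and with every warm array kept, 1 isoform gene, Cox6a2, was called lower in wild-type mice. The cold effect on its ratio to Cox6a1 was then −1.61 (exact permutation p = 0.0286). Leaving out 1 array at a time, that wild-type ratio ranged from −1.61 to −0.69, with an exact permutation p under 0.05 only without wild-type 5 °C replicate 2. The genotype difference of Cox4i2 relative to Cox4i1 at 28 °C ranged from 0.23 to 0.41 (0.32 with all mice, exact permutation p = 0.0974), and had an exact p under 0.05 without wild-type replicate 1 (0.41, p = 0.0368) or replicate 3 (0.40, p = 0.0433). These p-values are without adjustment over the pairs. The cause was not tested. No called value changed sign. Array-median scaling moved the split of wild-type cold calls over all genes from 1852 higher and 1841 lower to 2368 and 1354. In null mice it moved from 1525 and 1405 to 1767 and 1039, with the isoform calls the same in number. With a replicate block, 6 isoform genes were higher in each genotype, as without it, and same-numbered mice of different groups did not deviate together (median r −0.04, range −0.25 to 0.35).

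Cox4i2 lay near the array medians and Cox6a1, COX1 and COX3 near the array maxima. What this did to their changes was not tested.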
